A study of Homo sapiens with 3 samples.

Results

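The genes of the extracellular matrix, of the integrins that bind it and of the proteases and inhibitors that act on it were described in Rh-30 cells, as 45 genes of the 19775 genes measured. The 45 genes were chosen by name, and each was represented by 1 of the probe sets that the platform annotation pairs with its symbol, the one whose log2 intensity averaged highest across arrays. Rh-30 is an established cell line of alveolar rhabdomyosarcoma (ARMS), a tumour of the skeletal muscle lineage, and it holds the PAX3-FOXO1 fusion. It was transfected with siRNA against PAX3-FOXO1 (siPF), with siRNA against B7-H3, also called CD276 (siB7-H3), or with control siRNA (siCont), each at 5 nM, and RNA was taken 24 h later. There was 1 GeneChip array per condition and 1 siRNA per target, so the values have no replicate error, conditions could not be tested against each other, and each difference compares 1 array with 1 other. All 3 conditions shared the same cell line, medium and transfection reagent.

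The extracellular matrix is a mesh of collagens, glycoproteins and proteoglycans around cells. Fibrillar collagens form cables, type IV collagen and laminins form the sheet of the basement membrane, and integrins, pairs of an alpha and a beta chain, anchor cells to both. Matrix metalloproteinases cut these proteins and TIMPs inhibit them. In skeletal muscle each fibre is wrapped in a basement membrane, and laminin bound by integrins holds the fibre to it.

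The values were intensities on a linear scale. Each array had a mean of 500.1 once the lowest and highest 2% of its probe sets were left out. A level limit was set at an intensity that 39.7% to 40.2% of probe sets reached, depending on the array. Of the 45 genes, 36 reached it on at least 1 array, as did 10601 of all genes, and the 9 others are given apart. The label of the cells was checked against skeletal muscle markers. Of 11 measured markers 10 reached the level limit, and MYF6 did not. Of these 10, 8 were above siCont in siPF and 9 in siB7-H3, beside 52.6% and 52.8% of all genes at this level. MYOD1 and MYF5 were below siCont in siPF, and MYF5 also in siB7-H3. MYOG had 3386 in siPF, 1269 in siB7-H3 and 605 in siCont, TNNI1 had 4121 in siPF, 2763 in siB7-H3 and 1971 in siCont, and MYOD1 had 8688 in siPF, 13046 in siB7-H3 and 11471 in siCont. The summed intensity of the 11 markers was 70562.5 in siPF, 64517.7 in siB7-H3 and 53025.8 in siCont, of which ACTC1 gave 38707, 32753 and 26987. Fibroblast markers reached the level limit in 2 of 8 genes (THY1 and S100A4), epithelial markers in 1 of 7 (CLDN4), endothelial markers in 1 of 5 (PECAM1) and blood markers in 0 of 4. The summed intensity of the 8 fibroblast markers was 4085 in siPF, 2981 in siB7-H3 and 2651 in siCont. Most of it came from S100A4, with 2734, 1951 and 1716, and THY1, with 1045, 839 and 791. The others were dim, and PDGFRA and LUM were under 30 on all arrays. The part of these differences in the matrix genes below was not tested. In such bulk samples, fewer cells of a type and less RNA per cell cannot be told apart. CD276 had 1381 in siPF, 362 in siB7-H3 and 1486 in siCont. FOXO1, the 3' partner of the fusion, had 249 in siPF, 650.0 in siB7-H3 and 678 in siCont.

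No gene of the 36 was 2-fold or more from siCont on either knockdown array, nor between the knockdown arrays. Among all genes at or above the level limit, 1.4% were at least 2-fold higher and 1.16% at least 2-fold lower in siPF than in siCont. For siB7-H3 these shares were 0.868% and 0.821%, and for siPF against siB7-H3 they were 0.934% and 0.981%. At shares this low, less than 1 of 36 genes lies past 2-fold in each direction, so the absence of such genes is near the background.

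**Figure D1:**
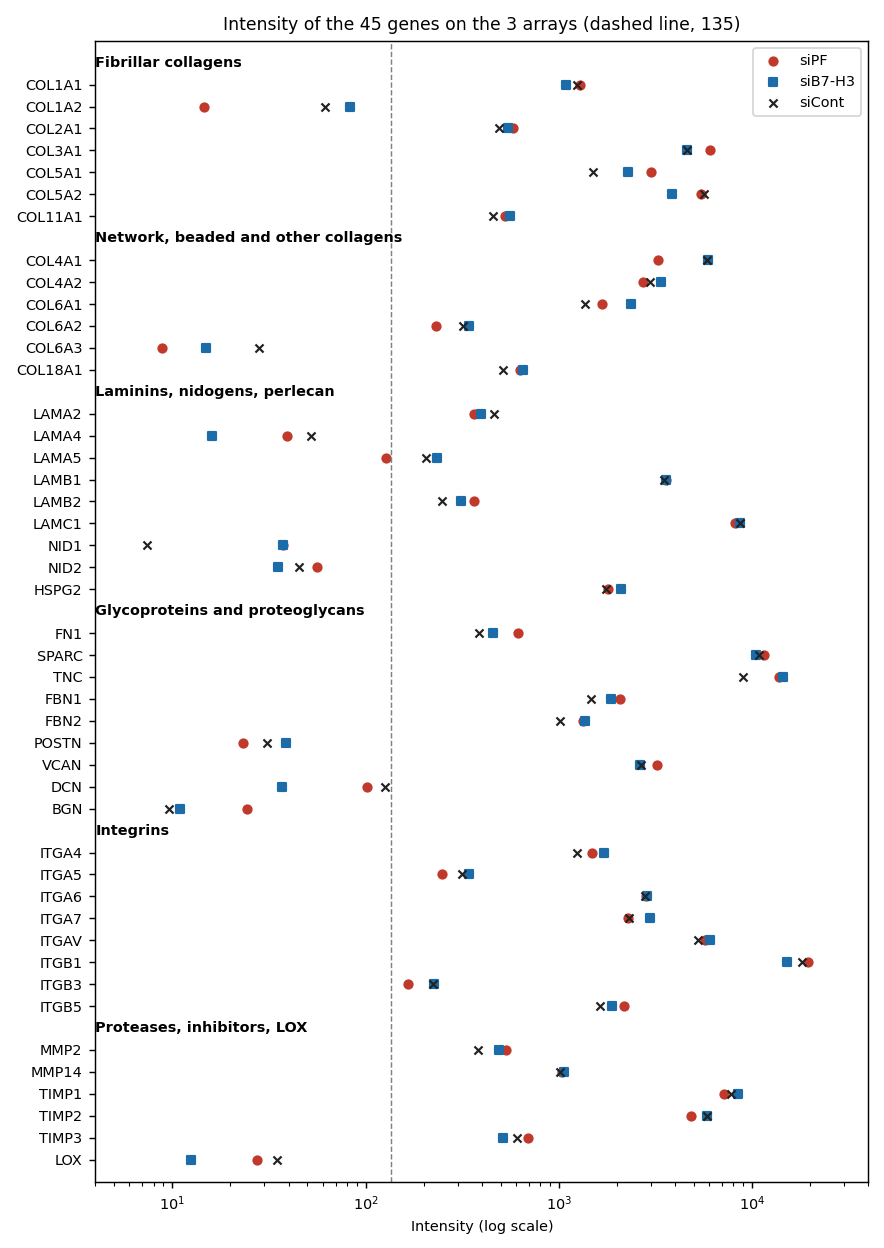
Intensity of each of the 45 genes (log scale) on the siPF (red circles), siB7-H3 (blue squares) and siCont (black crosses) arrays, grouped by role, with 1 point per array. The 9 genes left of the dashed line (the level limit) on all arrays are spread widely, whereas the symbols of most of the other 36 lie close together.

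At a difference of 1.5-fold, 3 of the 36 genes were higher in siPF (COL5A1, FN1 and TNC) and 2 lower (COL4A1 and LAMA5), beside 5.76% and 4.67% of all genes at that level. In siB7-H3 3 genes were higher (COL6A1, TNC and COL5A1) and 0 lower, beside 4.41% and 3.83%. A count of 3 of 36 genes is 8.33%, which is close to the background for so few genes. Both comparisons use the same siCont array. In siPF 24 of the 36 genes were above siCont, 66.7% beside 52.6% of all genes, and in siB7-H3 27 were above it, 75% beside 52.8%. The median log2 difference of the 36 genes was 0.096 in siPF and 0.14 in siB7-H3, and that of all genes at this level was 0.018 and 0.017.

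How far 2 probe sets of a gene differ gives the one repeat measure on these arrays, and it is no replicate of a condition, since both read the same RNA. Over 5442 genes with at least 2 probe sets at or above the level limit, the SD between probe sets of a gene was 0.30 for the log2 difference of siPF to siCont, 0.29 for siB7-H3 to siCont and 0.28 for siPF to siB7-H3. Many of the differences below are smaller than this, and the sign of such a difference is a description of 2 values only.

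The promoters of 3 loci with larger differences are shown first, COL4A1, COL5A1 and TNC, since COL4A1 and COL4A2, the main chains of type IV collagen, lie head to head and share theirs. The window printed is 300 bases, from 250 before to 50 after the start of the gene, from RefSeq on GRCh38.p14. Capitals mark the letters GGGCGG (a GC box), CCAAT or TATAAA, on either strand. In this table the start of COL4A1 on the minus strand and that of COL4A2 on the plus strand are 126 bases apart, and their windows share 226 identical bases.
COL4A1 (shared in part with COL4A2), chr13:110307108-110307407, minus strand: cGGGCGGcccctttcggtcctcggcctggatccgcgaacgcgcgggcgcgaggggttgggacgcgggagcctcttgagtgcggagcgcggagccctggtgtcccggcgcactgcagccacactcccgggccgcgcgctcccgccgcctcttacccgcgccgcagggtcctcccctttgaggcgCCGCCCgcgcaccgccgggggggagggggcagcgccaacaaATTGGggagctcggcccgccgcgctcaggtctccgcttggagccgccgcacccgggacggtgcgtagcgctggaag
COL5A1, chr9:134641553-134641852, plus strand: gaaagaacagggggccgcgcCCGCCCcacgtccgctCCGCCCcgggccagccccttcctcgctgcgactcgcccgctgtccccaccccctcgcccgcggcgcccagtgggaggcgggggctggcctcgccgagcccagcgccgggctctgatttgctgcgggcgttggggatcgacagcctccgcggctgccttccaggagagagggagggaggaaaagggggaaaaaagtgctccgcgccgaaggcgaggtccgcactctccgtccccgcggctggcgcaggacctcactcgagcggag
TNC, chr9:115118108-115118407, minus strand: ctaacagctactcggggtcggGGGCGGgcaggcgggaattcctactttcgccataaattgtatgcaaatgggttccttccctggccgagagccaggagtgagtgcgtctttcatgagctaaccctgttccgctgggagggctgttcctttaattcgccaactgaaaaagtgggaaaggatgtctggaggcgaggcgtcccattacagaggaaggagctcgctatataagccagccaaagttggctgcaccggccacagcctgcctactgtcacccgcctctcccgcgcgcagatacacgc
The COL4A1 window held 2 GGGCGG and 1 CCAAT, the COL5A1 window 2 GGGCGG, and the TNC window 1 GGGCGG and 2 matches of the E-box letters CANNTG. Of the 36 genes, 27 had a window in the table, and 22 of these held GGGCGG (81.5%), 7 CCAAT (25.9%) and 10 CANNTG (37.0%). Among all 35116 windows of this length the shares were 45%, 34.6% and 68.7%. These windows outnumber the 19775 genes measured and were not limited to genes at or above the level limit. They are thus no matched background for the 27 genes. A match of letters is a description and not a binding site.

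Among the fibrillar collagens, which build collagen cables, 6 of 7 genes reached the level limit, and 5 of these were above siCont in siPF and 3 in siB7-H3. COL5A1, whose type V collagen starts fibrils and limits their width, had an intensity of 2983 in siPF, 2286 in siB7-H3 and 1508 in siCont. This was the highest difference of the 36 genes, 0.98 on the log2 scale in siPF, just short of 2-fold, and 0.60 in siB7-H3. Its 2 other probe sets at this level gave 0.84 and 0.31 in siPF, and 0.22 and -0.04 in siB7-H3, so the size, and in siB7-H3 the direction, depended on the probe set. COL5A2, the partner chain of COL5A1, did not follow it. It had 5462 in siPF, 3861 in siB7-H3 and 5637 in siCont, which gave -0.045 in siPF and -0.55 in siB7-H3. The other COL5A2 probe set gave 0.11 and -0.67, so in siB7-H3 both lay below siCont. The 2 chains of type V collagen therefore stood on opposite sides of siCont in siB7-H3 by the probe sets used.

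COL3A1, the chain of type III collagen, had 6032 in siPF, 4582 in siB7-H3 and 4589 in siCont. Its log2 difference was 0.39 in siPF, where the 2 other probe sets gave 0.38 and 0.02. COL1A1, a chain of type I collagen, had 1286 in siPF, 1088 in siB7-H3 and 1249 in siCont, within the spread between probe sets. Its other probe sets at or above the level limit gave 0.62 and -1.52 in siPF, the widest split of any of the genes. COL1A2, the partner chain of COL1A1 in type I collagen, stayed under the level limit at all of its 3 probe sets. COL2A1, the cartilage collagen, had 582 in siPF, 547 in siB7-H3 and 492 in siCont. COL11A1, which joins COL2A1 in cartilage fibrils, had 528 in siPF, 561 in siB7-H3 and 455 in siCont. For both genes every probe set at this level was above siCont on both knockdown arrays, by 0.15 to 0.77.

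**Figure D2:**
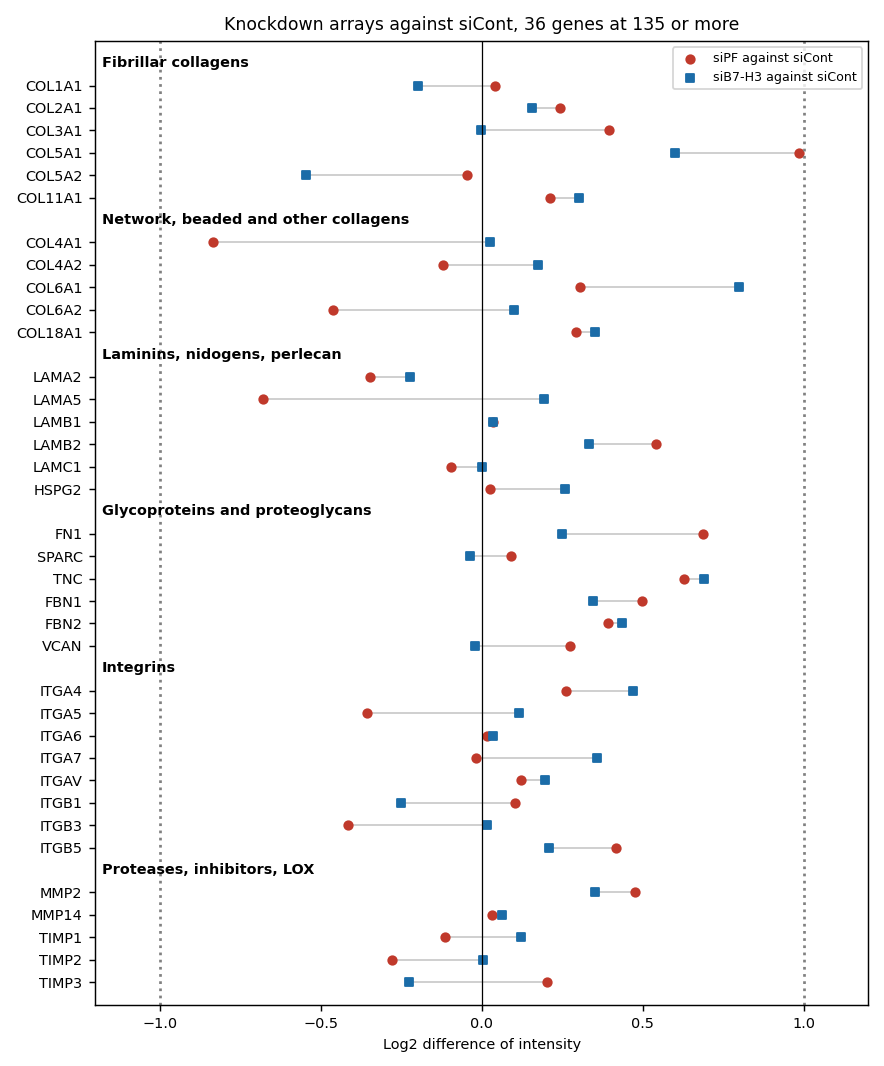
Log2 difference to siCont of the 36 genes at or above the level limit, for siPF (red circles) and siB7-H3 (blue squares), grouped by role, with dotted lines at 2-fold. All points lie inside the dotted lines, with COL5A1 (0.98) and COL4A1 (-0.83) farthest out in siPF and COL6A1 (0.80) and COL5A2 (-0.55) in siB7-H3.

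The collagens of basement membranes and fine networks were placed differently. COL4A1 had 3277 in siPF, 5941 in siB7-H3 and 5840.3 in siCont, a log2 difference of -0.83 in siPF and 0.025 in siB7-H3. Its other probe set gave -0.69 and -0.30, so it was below siCont in siPF at both. This was the lowest difference to siCont of the 36 genes. COL4A2, which shares the promoter window printed above and whose protein joins that of COL4A1 in a trimer, had 2739 in siPF, 3366 in siB7-H3 and 2981 in siCont. It was also below siCont in siPF at both probe sets, but by less, with -0.12 and -0.45. In siB7-H3 the COL4A2 probe sets split, at 0.18 and -0.45.

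Type VI collagen, the beaded filament around muscle fibres, is built from COL6A1, COL6A2 and COL6A3. COL6A1 had 1683 in siPF, 2371 in siB7-H3 and 1363 in siCont, and its difference of 0.80 in siB7-H3 was the highest on that array. The 2 other COL6A1 probe sets at or above the level limit gave 0.42 and 0.09 there, and with the median over all 8 probe sets of the gene it was 0.047. COL6A2 had 233 in siPF, 343 in siB7-H3 and 321 in siCont. COL6A3 had 1 probe set and stayed under 30 on all arrays. COL18A1, a basement membrane collagen from which endostatin is cut, had 628 in siPF, 654 in siB7-H3 and 513 in siCont, and its 2 probe sets lay on opposite sides of siCont on both knockdown arrays.

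Laminins are the trimers to which muscle fibres attach, and 5 of their chains reached the level limit. LAMC1, the gamma chain of most laminins, had 8125 in siPF, 8681 in siB7-H3 and 8688 in siCont. LAMB1 had 3608 in siPF, 3605 in siB7-H3 and 3520.3 in siCont. Both stayed within 0.21 of siCont at every probe set at or above the level limit. LAMA2, the alpha chain of the muscle laminin, whose loss causes a congenital muscular dystrophy, had 362 in siPF, 395 in siB7-H3 and 461 in siCont. Its 3 probe sets at this level were below siCont on both knockdown arrays, by at most 0.35 on the log2 scale. LAMA5, another alpha chain, had 128 in siPF, 235 in siB7-H3 and 205 in siCont, a log2 difference of -0.68 in siPF and 0.19 in siB7-H3 from its 1 probe set. Its siPF value lies under the level limit, so LAMA5 was near the level at which differences widen. LAMB2, a beta chain found at the neuromuscular junction, had 362 in siPF, 313 in siB7-H3 and 249 in siCont, log2 differences of 0.54 and 0.33 from 1 probe set. In siPF the 5 chains thus lay on both sides of siCont, with LAMB1 and LAMC1 the closest to it. HSPG2, which encodes the heparan sulphate proteoglycan perlecan, had 1794 in siPF, 2107 in siB7-H3 and 1762 in siCont.

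The glycoproteins and proteoglycans were the 1 class in which all 6 genes at or above the level limit were above siCont in siPF. Their median log2 difference was 0.44, and 52.6% of all genes at this level were above siCont there. In siB7-H3 4 of the 6 were above siCont, beside 52.8% of all genes, with a median of 0.30. TNC, which encodes tenascin-C, a glycoprotein of embryonic and wounded tissue, had 13828 in siPF, 14435 in siB7-H3 and 8942 in siCont. Its log2 differences were 0.63 and 0.69, and its 2 other probe sets gave 0.56 and 0.29 in siPF and 0.40 and 0.32 in siB7-H3. TNC was thus above siCont at all 3 probe sets on both knockdown arrays. The 388 genes with a mean intensity of 10000 or more, among which TNC, SPARC and ITGB1 lie, had a median difference of 0.11 in siPF and 0.13 in siB7-H3, with an SD across genes of 0.21 and 0.17. The part of this shift of bright genes in the TNC values was not tested.

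FN1, the gene of fibronectin, a ligand of the integrins of the alpha-5 and alpha-V type, had 619 in siPF, 457 in siB7-H3 and 384 in siCont. At the 4 FN1 probe sets at or above the level limit the difference in siPF was 0.57 to 0.72. In siB7-H3 they ranged from -0.35 to 0.34. All 4 can bind several transcripts by their type, and without such probe sets the FN1 difference in siPF was 0.25, from a dimmer probe set. FBN1 and FBN2 encode fibrillins, the proteins of elastic microfibrils. FBN1 had 2078 in siPF, 1869 in siB7-H3 and 1472 in siCont, with all 3 probe sets above siCont by 0.25 to 0.50. FBN2 had 1332 in siPF, 1372 in siB7-H3 and 1015 in siCont, log2 differences of 0.39 and 0.43 from 1 probe set at this level. Its 2 dim probe sets gave -3.50 and -0.20 in siPF, and with the median over probe sets FBN2 was at -0.20 there.

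VCAN, the gene of the large proteoglycan versican, had 3239 in siPF, 2637 in siB7-H3 and 2677 in siCont. Its 5 probe sets were above siCont in siPF by 0.19 to 0.78, and lay from -0.27 to 0.11 in siB7-H3. SPARC, a collagen-binding protein, had 11504 in siPF, 10537 in siB7-H3 and 10816 in siCont, within the spread between probe sets. FN1 and VCAN therefore stood above siCont at all their probe sets at or above the level limit in siPF and on both sides of it in siB7-H3, whereas TNC and FBN1 stood above it on both arrays.

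**Figure D3:**
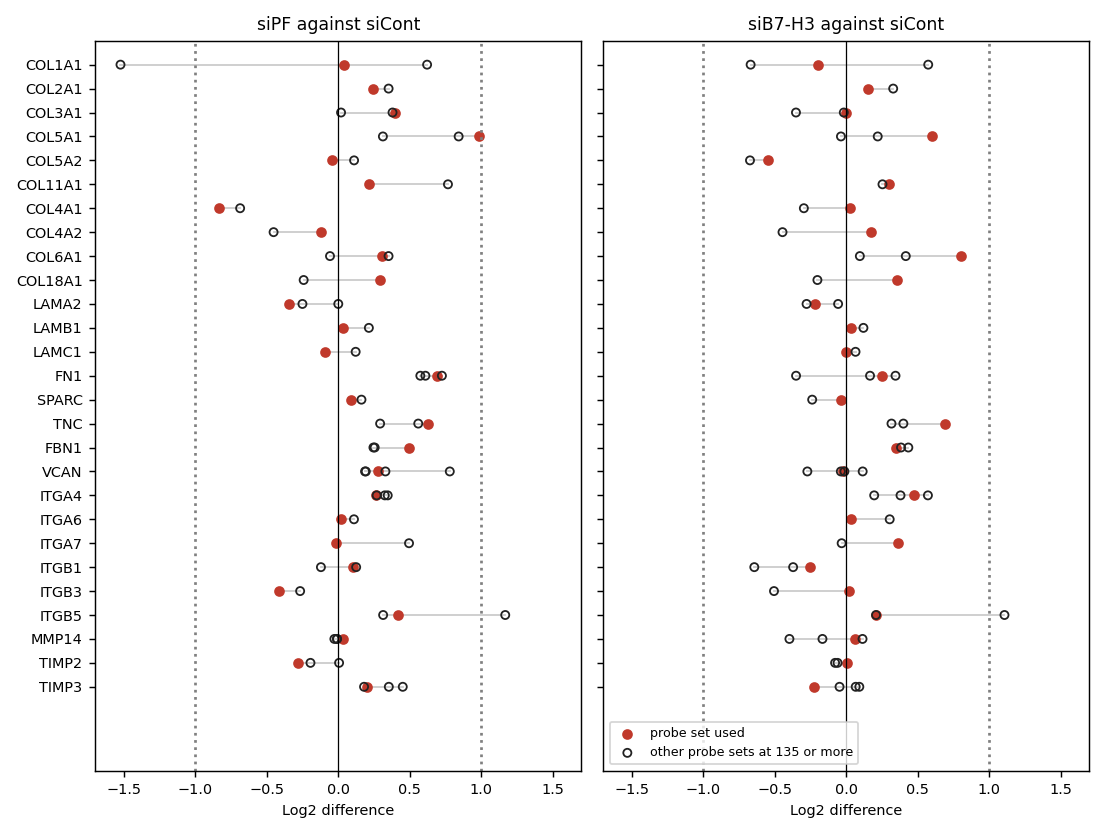
Log2 difference to siCont of every probe set at or above the level limit, for the 27 genes with at least 2 of them, in siPF (left) and siB7-H3 (right). Filled circles are the probe sets used, open circles the others, and dotted lines mark 2-fold. In siPF the probe sets of 14 genes all lie above 0 and of 4 genes below it, and in siB7-H3 those of 9 genes lie above and of 5 below.

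All 8 integrin genes reached the level limit, and none differed from siCont by 1.5-fold at the probe set used. ITGB1, the beta chain shared by most of these integrins, had 19393 in siPF, 15179.8 in siB7-H3 and 18066 in siCont. In siB7-H3 its 3 probe sets at or above the level limit were all below siCont, with -0.25, -0.37 and -0.64, whereas in siPF they gave 0.10, 0.12 and -0.12. ITGA4, which with ITGB1 binds fibronectin and VCAM1, had 1483 in siPF, 1713 in siB7-H3 and 1236 in siCont, and its 4 probe sets were above siCont on both arrays, by 0.19 to 0.57. ITGA5, the fibronectin receptor chain, had 247 in siPF, 343 in siB7-H3 and 316 in siCont. ITGA6, a laminin receptor chain, had 2822 in siPF, 2855 in siB7-H3 and 2788 in siCont, the smallest range of the integrins relative to its level.

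ITGA7, the main laminin receptor chain of skeletal muscle, had 2280.1 in siPF, 2959 in siB7-H3 and 2309 in siCont, and its other probe set gave 0.49 in siPF and -0.03 in siB7-H3. ITGAV, which pairs with several beta chains, had 5739.7 in siPF, 6053 in siB7-H3 and 5280.1 in siCont. Its partners ITGB3 and ITGB5 were placed on opposite sides of siCont in siPF. ITGB3 had 167 in siPF, 225 in siB7-H3 and 223 in siCont. ITGB5 had 2174 in siPF, 1882 in siB7-H3 and 1630.3 in siCont, with all 3 probe sets above siCont on both arrays.

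Among the proteases, MMP2, a gelatinase that cuts type IV collagen, had 532 in siPF, 488 in siB7-H3 and 383 in siCont, log2 differences of 0.48 and 0.35 from 1 probe set at this level. MMP14, the membrane-bound protease that activates the MMP2 proenzyme, had 1037 in siPF, 1059.8 in siB7-H3 and 1015 in siCont, and its 4 probe sets were within 0.03 of siCont in siPF and lay from -0.40 to 0.11 in siB7-H3. The inhibitors of these proteases were all well above the level limit. TIMP1 had 7184 in siPF, 8471 in siB7-H3 and 7779 in siCont. TIMP2, which also takes part in the activation of MMP2 by MMP14, had 4824 in siPF, 5875 in siB7-H3 and 5858 in siCont. TIMP3, the matrix-bound inhibitor, had 695 in siPF, 517 in siB7-H3 and 604 in siCont. For all 3 inhibitors the difference to siCont was within 0.28 at the probe set used, smaller than the spread between probe sets, so no direction is given. The 4 TIMP3 probe sets were 0.18 to 0.45 above siCont in siPF and lay from -0.23 to 0.09 in siB7-H3, and the 3 TIMP2 probe sets lay from -0.28 to 0.005 in siPF.

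The siPF and siB7-H3 arrays were also compared with each other, which leaves the siCont array out. Among all genes at or above the level limit, 51.0% were higher in siPF than in siB7-H3. Of the 6 fibrillar collagens at this level 5 were higher in siPF, with a median log2 difference of 0.31 and a range of -0.089 to 0.50. All 5 other collagens, of types IV, VI and XVIII, were lower in siPF, with a median of -0.49 and a range of -0.86 to -0.057. By the probe sets used, the classes did not overlap except for COL11A1 (-0.089), which lay below COL18A1 (-0.057). Other probe sets at or above the level limit gave -0.85 and 0.048 for COL1A1 and 0.51 for COL11A1. With the median over probe sets COL1A1 was at -0.19 and COL11A1 at 0.50, so the separation depended on the probe set. Every probe set at or above the level limit had the same sign for COL2A1, COL3A1, COL5A1 and COL5A2 (higher in siPF) and for COL4A1, COL4A2, COL6A1 and COL18A1 (lower in siPF). The further collagen genes at or above the level limit did not show this split. Among these, the fibrillar chains COL27A1 and COL11A2 stood at -0.93 and 0.27, and the non-fibrillar COL7A1, COL15A1, COL16A1, COL12A1 and COL14A1 at 0.52, 0.40, 0.17, 0.16 and -0.023. The median of these 7 genes was 0.17, and that of all genes at this level was 0.0049. COL4A1 and LAMA5 were at least 1.5-fold lower in siPF, 2 of 36 beside 3.76% of all genes, and 0 of 36 were 1.5-fold higher, beside 4.08%.

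By the probe sets used, 6 of the 8 integrins were lower in siPF than in siB7-H3, with ITGA5 at -0.47, ITGB3 at -0.43 and ITGA7 at -0.38. The other probe set at or above the level limit gave 0.24 for ITGB3 and 0.53 for ITGA7. Those of ITGA4 ranged from -0.30 to 0.15. ITGB1 and ITGB5 were higher, at 0.35 and 0.21, and so were their other probe sets at this level. The glycoproteins and proteoglycans had a median of 0.14, the laminins with HSPG2 -0.11 and the proteases and inhibitors -0.032. Over all 36 genes, 15 were higher in siPF (41.7%), beside 51.0% of all genes.

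**Figure D4:**
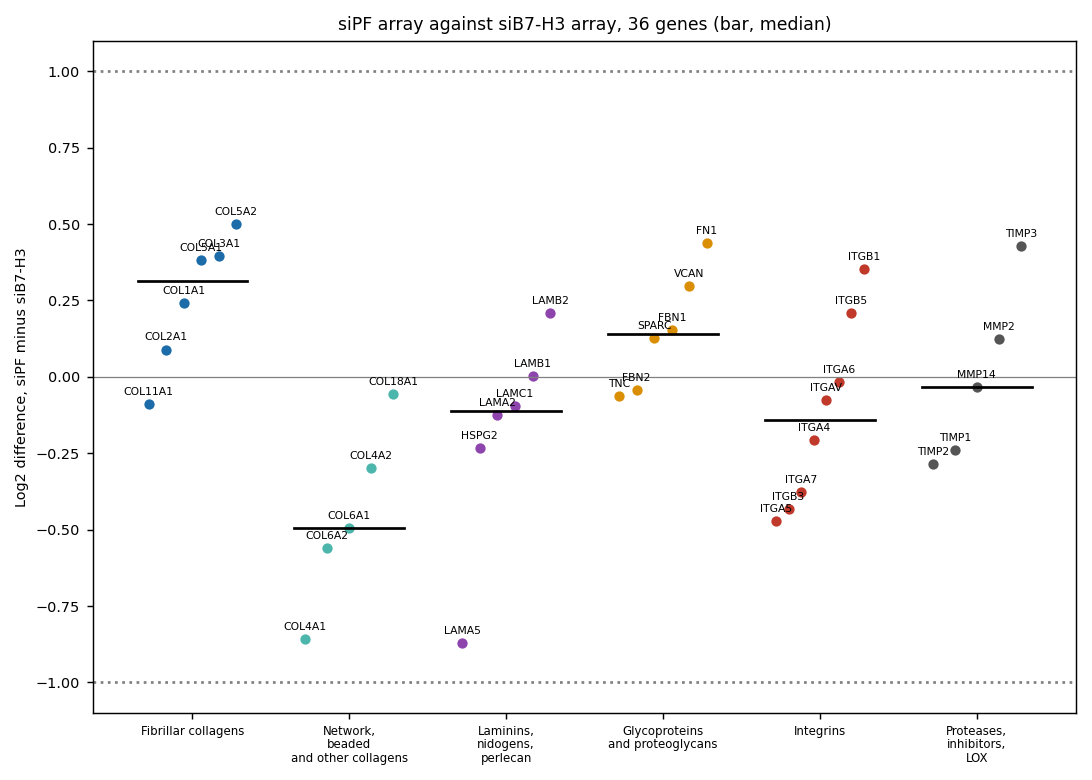
Log2 difference of siPF minus siB7-H3 for the 36 genes at or above the level limit, 1 point per gene, by role, with the median of each class as a bar and dotted lines at 2-fold. The fibrillar collagens lie mostly above 0 (median 0.31) and the other collagens all below it (median -0.49).

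The siCont array had the lowest value for 18 of the 36 genes, beside 37.6% of all genes at this level, and the highest for 3 of them (COL5A2, LAMA2 and LAMC1), beside 32.2%. The siB7-H3 array had the highest value for 19 genes and the siPF array for 14, beside 32.3% and 35.5%. With 1 array per condition, array and condition cannot be told apart in these counts.

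The 9 genes under the level limit on all arrays were COL1A2, COL6A3, LAMA4, NID1, NID2, POSTN, DCN, BGN and LOX, with intensities from 7.43 to 127. Low values scatter. Of the 9174 genes under the level limit, 19.3% were at least 2-fold higher and 18.9% at least 2-fold lower in siPF than in siCont, and 17.9% and 19.4% in siB7-H3. DCN, the gene of the small proteoglycan decorin, came closest to the level limit, with 101 in siPF, 36.8 in siB7-H3 and 127 in siCont. NID1, which encodes the nidogen that links laminin to type IV collagen, had 37.5 in siPF, 37.4 in siB7-H3 and 7.43 in siCont. Past 2-fold in siPF were also COL1A2 with 14.5 against 62.0 in siCont, COL6A3 with 8.83 against 28 and BGN (biglycan) with 24.3 against 9.66. In siB7-H3 these were LAMA4 with 16 against 52.4 and LOX, the enzyme that cross-links collagen and elastin, with 12.5 against 34.6. NID2 and POSTN (periostin) were within 2-fold of siCont in both. With 4 of 9 genes past 2-fold in each comparison, beside 38.2% and 37.3% of all genes under the level limit in either direction, these counts are near the background of dim genes.

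**Figure D5:**
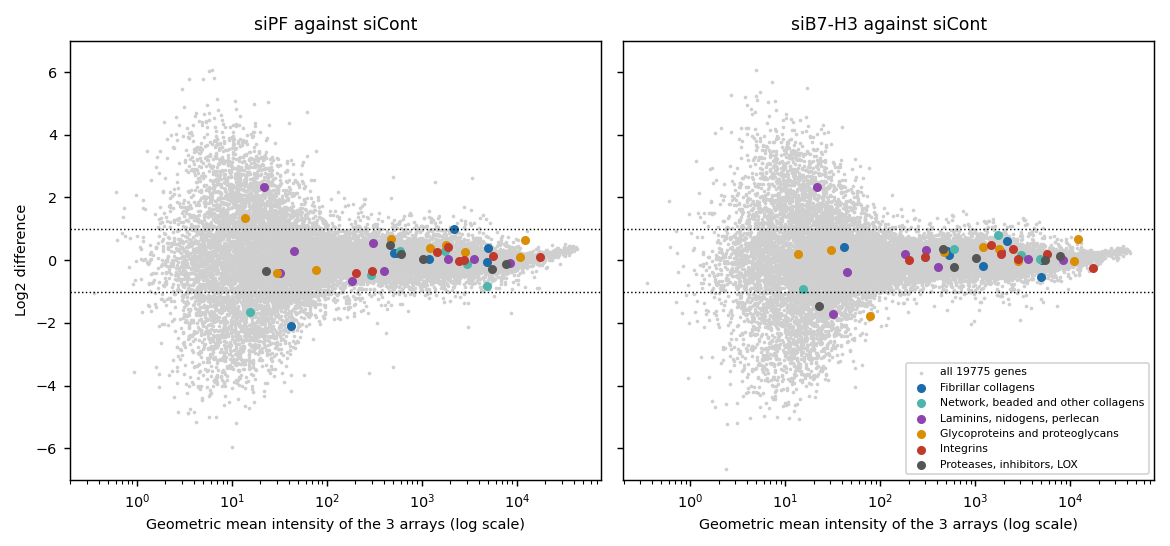
Log2 difference to siCont against the geometric mean intensity of the 3 arrays (log scale), for siPF (left) and siB7-H3 (right). Grey points are all 19775 genes, coloured points the 45 genes by role, and dotted lines mark 2-fold. Genes under 100 scatter widely around 0, and the coloured points past 2-fold all lie there.

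Other genes of the matrix were taken from lists beside the 45, and their counts past 2-fold stand beside 1.4% higher and 1.16% lower of all genes at this level in siPF, and 0.868% and 0.821% in siB7-H3. Of 30 further collagen genes 7 reached the level limit, and COL27A1, a cartilage collagen, was past 2-fold. It had 1035 in siPF, 1972 in siB7-H3 and 2365 in siCont, with other probe sets at this level giving -0.95 and -0.61 in siPF. Of 49 other matrix proteins 19 reached the level limit, 2 of them past 2-fold higher and 1 lower in siPF, and 1 higher and 0 lower in siB7-H3. ELN, the gene of elastin, had 469 in siPF, 294 in siB7-H3 and 122 in siCont, log2 differences of 1.95 and 1.27. Its other probe set gave 1.08 and 0.44. MFAP4, a protein of elastic microfibrils, had 635 in siPF, 305 in siB7-H3 and 226 in siCont. LTBP2, a microfibril protein of the latent TGF-beta binding family, had 58.2 in siPF, 235 in siB7-H3 and 169 in siCont, with its other probe set, under the level limit, at -0.12. The siPF value of LTBP2 is dim, and with a floor at the level limit its difference of -1.54 in siPF was -0.32 and no longer past 2-fold.

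Of 23 genes that modify, process or cross-link collagen 21 reached the level limit, 2 of them past 2-fold higher and 0 lower in siPF and 0 either way in siB7-H3. P4HA2, a prolyl hydroxylase subunit, had 361 in siPF, 203 in siB7-H3 and 129 in siCont, and another probe set gave 1.90 and 0.83. LOXL4, a relative of LOX, had 314 in siPF, 219 in siB7-H3 and 149 in siCont. Of 51 other proteases and regulators 24 reached the level limit, 2 of them past 2-fold higher in siPF and 1 in siB7-H3, and 0 lower. ADAM33 had 337 in siPF, 57.3 in siB7-H3 and 12.8 in siCont, so it was at the level limit in siPF alone. With a floor at the level limit its difference was 1.32 in siPF and 0 in siB7-H3, where it was no longer past 2-fold. ADAMTS9, which cuts versican and aggrecan, had 206 in siPF, 131 in siB7-H3 and 69.7 in siCont. Its 3 other probe sets were under the level limit, and its difference of 1.56 in siPF was 0.61 with a floor at the level limit and -0.34 with the median over all 4. Of 17 other integrin chains 6 reached the level limit and none was past 2-fold from siCont. ITGA3, a laminin receptor chain, had 189 in siPF, 91.3 in siB7-H3 and 115 in siCont, and was 1.05 higher on the log2 scale in siPF than in siB7-H3. Only its siPF value reached the level limit, and with a floor there the difference was 0.49. Of 4 other laminin chains 1 reached the level limit and was within 2-fold.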

How the data were processed

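Each condition of Rh-30 cells was measured on 1 U133 Plus 2.0 array. The intensities that the authors deposited are linear, and the submitters' processing notes name Affymetrix Expression Console 1.4.1. How probes were summarized is not given in the sources used here. Depth has no meaning for these values, and the number of arrays limits the precision. Of 54675 probe sets, 62 were controls and 41091 were named with 1 gene, with symbols updated through the gene identifier. Those of several genes or none were left out. Each gene was represented by the probe set brightest on average on the log2 scale, and differences were taken on the log2 scale with no floor. The threshold was 2-fold. Genes named were all 45, CD276, FOXO1 and PAX3 as a check, markers, and genes of other lists at or above the level limit and past 2-fold in any comparison. PAX3, whose value does not separate the fusion from the normal transcript, had 329 in siPF, 398 in siB7-H3 and 381 in siCont. The members and lists were chosen with earlier results of these data known. Alternatives changed the probe set, the scaling, the low values and the threshold. Scripts were tested on simulated data and ran in Python 3.11.15 with pandas 2.3.3 and numpy 2.4.6, and figures were drawn with matplotlib 3.10.9.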

Additional observations from a re-analysis of the deposited data

Results flagged for a closer look

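Probe sets that were not used for the main values were past 2-fold for 2 of the 36 genes. A further COL1A1 probe set, with 48.2 in siPF, 87.1 in siB7-H3 and 138 in siCont, had a log2 difference of -1.52 in siPF. A further ITGB5 probe set, of a type that can bind several transcripts, had 296 in siPF, 284 in siB7-H3 and 132 in siCont, and gave 1.17 in siPF and 1.11 in siB7-H3. Both lie close to the level limit in siCont. The probe sets used gave 0.042 for COL1A1 in siPF, and 0.42 and 0.21 for ITGB5. No group held enough arrays to look for an array far from its group.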

How the results depend on the processing

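No gene of the list at or above the level limit was past 2-fold in either direction with the brightest probe set on any array, the median over probe sets, without probe sets that can bind several transcripts, with each array centred on its median, after quantile normalization, with a floor at the level limit, or with the level limit raised to 270. The genes counted were 31 with the median over probe sets, 25 without probe sets that can bind several transcripts and 34 with the raised limit. With the median over probe sets, ITGB1 was at -1.22 and MMP2 at 1.17 in siB7-H3, both past 2-fold. Their medians were under the level limit on all arrays, so neither was counted. Without a level limit, 2 genes were 2-fold or more higher and 2 lower in siPF, 1 higher and 3 lower in siB7-H3, and 4 higher and 1 lower in siPF against siB7-H3, all of them dim, and the median log2 difference over the 45 genes in siPF was 0.042. At 1.5-fold the counts were 3 higher and 2 lower in siPF, 3 higher in siB7-H3, and 2 lower in siPF against siB7-H3. With every probe set at or above the level limit counted, an alternative added after the data were seen, 1 was higher and 1 lower in siPF and 1 higher in siB7-H3. A shift was counted where it passed the SD between probe sets of a gene, divided for medians by the square root of the number of genes. For the counts past 2-fold, which were 0 in the main setting, any change was counted. Single-gene values shifted in 65 of 801 cases under the processing settings and in 144 of 273 at other probe sets, dim ones included. A turn of direction was counted apart only where the main difference was past 2-fold, in a further 1 and 4 cases. Other turns were counted as shifts only where they passed the SD between probe sets. Of the counts and medians 14 of 87 shifted. Single genes outside the 45 turned direction at other probe sets under the level limit or with the median over probe sets. The cause was not tested. In siPF these were COL27A1 (0.15), P4HA2 (-0.26) and ADAMTS9 (-2.35, and -0.34 with the median), and in siB7-H3 ADAM33 (-0.13). Of the 36 genes, 17 turned direction in at least 1 comparison with the median over probe sets, which takes in dim ones. Without probe sets that can bind several transcripts, 5 of the 29 genes that still had a probe set did so. In siPF the median gave -0.20 for FBN2, 0.15 for ITGB3, -0.72 for ITGB1 and -0.86 for COL1A1, and without such probe sets COL6A2 was at 0.47 and COL3A1 at -0.058. With the median over probe sets COL5A1 was at 0.39 in siPF and 0.041 in siB7-H3, and TNC at 0.29 and 0.32. No paired analysis was possible because each condition had 1 array.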

Other observations

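Proteins that link integrins to the actin skeleton were measured as a further list. Of 20 such genes 17 reached the level limit, with 12 above siCont on each knockdown array. Of all genes at this level 52.6% were above siCont in siPF and 52.8% in siB7-H3. FERMT3 alone was past 2-fold from siCont, lower in siPF, where 1.16% of all genes at this level were at least 2-fold lower. FERMT3, the kindlin of blood cells, had 85.2 in siPF, 230.3 in siB7-H3 and 239 in siCont at its 1 probe set, a log2 difference of -1.49 in siPF and -0.056 in siB7-H3. Its siPF value is under the level limit, and with a floor there the difference in siPF was -0.83 and no longer past 2-fold. The following were chosen after their values were seen, each from its brightest probe set alone. PTK2 has 4 probe sets, PXN and PLOD2 have 2 each and ILK has 1, and the others were not compared. PTK2, the focal adhesion kinase, had 1542 in siPF, 2013 in siB7-H3 and 2977 in siCont. ILK, the integrin-linked kinase, had 2341 in siPF, 1799 in siB7-H3 and 1418 in siCont, and PXN, the gene of paxillin, had 503 in siPF, 476 in siB7-H3 and 310.4 in siCont. PLOD2, a lysyl hydroxylase of collagen, had 1183 in siPF, 652 in siB7-H3 and 1163 in siCont, a log2 difference of -0.84 in siB7-H3, beside -0.55 for COL5A2 on the same array.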
